A study of Mus musculus with 18 samples.

Results

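The 8 genes described here encode the subunits of the cytosolic chaperonin CCT: Tcp1, Cct2, Cct3, Cct4, Cct5, Cct6a, Cct7 and Cct8. They were selected by gene symbol, as 8 of the 17714 gene labels in the count table, with all 145 isoforms listed under those symbols out of 114425. The libraries came from mouse primary cultures of astrocytes, microglia and neurons, all with brain given as the tissue, and from the small extracellular vesicles (sEVs) that each culture released. The 6 groups were astrocyte sEVs and astrocyte cells, microglia sEVs and microglia cells, and neuron sEVs and neuron cells, with 3 libraries in each and 18 in all. Each library was made from polyadenylated RNA and sequenced as long PacBio reads, so that a read covers a whole transcript or a fragment of it, and reads of copied molecules are not marked. No genotype, strain, age or treatment is named in the labels, and the labels do not say whether the 3 libraries of a group came from separate cultures, so p-values measure the spread between these libraries, which may be technical. The comparison addresses whether sEVs carry the mRNAs of their source cells in the same proportions, and whether this differs between cell types.

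CCT is a ring-shaped complex in the cytosol that uses ATP to fold newly made proteins, above all actins and tubulins, which neurons and glia need in large amounts for their processes. It is built of a pair of stacked rings, and each ring holds every subunit once, in a fixed order, so the products of all the genes are needed in equal numbers. In yeast, the counterparts of CCT2, CCT4, CCT5 and CCT7 bind ATP more tightly than those of TCP1, CCT3, CCT6 and CCT8, and the ring is divided into sides by that property. Prefoldin carries unfolded actin and tubulin to CCT, and phosducin-like proteins help CCT fold or release some of its clients.

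The 8 genes took 25760 of 10234812 reads, and library totals ran from 434298 to 683381 reads. Per the labels' protocols, sEV RNA and cell RNA went through different extraction kits (RNeasy Micro for sEVs, RNeasy Mini for cells) and onto different SMRT cells, each fraction as a pool of its own, so that the effects of fraction, kit and pool cannot be told apart. The gene label Ftl1 was the most abundant in the 9 sEV libraries, at 14.9% to 31.5% of reads in the astrocyte and neuron sEV libraries, and the label Gm42047 took 8.94% of neuron sEV replicate 1 and 6.76% of astrocyte sEV replicate 1. Of 12 neuron markers, neuron cells held 6179 to 7585 RPM (reads per library, scaled to 1000000), but they also held 7827 to 8773 RPM of 12 astrocyte markers, against 60721 to 65577 RPM in astrocyte cells. Microglia markers stood at 13841 to 17975 RPM in microglia cells and at 0 in the 3 neuron cell libraries. Microglia cells also had 19885 to 21702 RPM of the astrocyte list, largely from Apoe, which microglia express too, and of 10 oligodendrocyte lineage markers there were 1957 to 3067 RPM in astrocyte sEVs and 4214 to 9131 RPM in astrocyte cells. Neuron sEVs had 3839 to 5411 RPM of the astrocyte list, against the level in neuron cells given above, and 284 to 446 RPM of the oligodendrocyte list, against 597 to 1645 RPM in neuron cells. The astrocyte genes moved both ways. Apoe had 7897 reads in neuron cells and 1221 in neuron sEVs, Slc1a3 had 1679 and 66, and Gja1 had 600 and 25. Gfap had 1856 reads in neuron cells and 3471 in neuron sEVs, Fabp7 had 737 and 1511, and Aldoc had 732 and 1876. The part of these other cells in the results was not tested. In bulk libraries of this kind, fewer cells of a type and less RNA per cell cannot be told apart.

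The promoters of these genes are shown for 4 members: Cct7 and Cct8, whose sEV and cell libraries did not overlap in any cell type, Tcp1, whose levels overlapped in each, and Cct5, which held a heat shock pair in 1 of its windows. Each sequence is the stretch of 250 bases before the RefSeq start site in GRCm38.p6, printed 5′ to 3′ on the gene's strand, and the reads were mapped to another build. Capitals mark the GC box GGGCGG on either strand and, in Cct5, the heat shock pair TTCNNGAA. A window was found for 7 of the 8 genes, with none for Cct4.
Cct7, chr6:85451255-85451504, plus strand: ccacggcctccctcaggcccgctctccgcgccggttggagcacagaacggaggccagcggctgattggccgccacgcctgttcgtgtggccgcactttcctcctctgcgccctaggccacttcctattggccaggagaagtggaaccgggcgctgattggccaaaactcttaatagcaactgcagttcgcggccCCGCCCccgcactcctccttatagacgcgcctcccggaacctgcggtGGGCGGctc
Cct8, chr16:87495870-87496119, minus strand: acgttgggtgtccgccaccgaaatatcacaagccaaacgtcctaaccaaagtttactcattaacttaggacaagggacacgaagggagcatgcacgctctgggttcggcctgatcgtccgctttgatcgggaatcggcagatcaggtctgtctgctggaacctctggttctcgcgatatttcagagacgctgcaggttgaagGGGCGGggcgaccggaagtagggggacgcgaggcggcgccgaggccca
Tcp1, chr17:12916079-12916328, plus strand: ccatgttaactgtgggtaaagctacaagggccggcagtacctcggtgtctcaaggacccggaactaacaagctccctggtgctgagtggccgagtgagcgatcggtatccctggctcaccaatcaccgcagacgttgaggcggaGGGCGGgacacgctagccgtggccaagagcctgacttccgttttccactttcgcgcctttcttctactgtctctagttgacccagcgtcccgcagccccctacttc
Cct5, chr15:31601847-31602096, minus strand: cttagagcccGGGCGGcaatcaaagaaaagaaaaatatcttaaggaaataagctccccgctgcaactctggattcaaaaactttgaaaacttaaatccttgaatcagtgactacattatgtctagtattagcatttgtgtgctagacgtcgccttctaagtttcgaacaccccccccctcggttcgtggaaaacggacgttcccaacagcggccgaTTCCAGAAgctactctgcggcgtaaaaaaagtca
The 7 genes have 9 windows, since Cct2 and Cct5 have a second start each. The GC box was present in 8 of the 9 windows, against 32.7% of 32851 promoter windows. The GC content of the 9 windows ran from 45.2% to 66.8%, beside a median of 52.4% over all windows. The part of base composition in the GC box share was not tested. The window of the second Cct5 start, chr15:31601540-31601789, held no GC box, no CCAAT and no heat shock pair. CCAAT, searched on both strands, was present in 4 of the 9 windows, those of Cct3, Cct6a, Cct7 and Tcp1, against 33.8% of all windows. Matches of different motifs were counted separately, whether or not they overlap. The heat shock pairs GAANNTTC and TTCNNGAA read the same on both strands, and one or the other was found in 2 of the 9 windows, that of the second Cct2 start and the Cct5 window shown, against 12.8% of all windows. A match is a description of these letters and not evidence of a bound factor.

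Levels are given as CPM, counts scaled to a library of 1000000 reads, with library sizes adjusted by TMM, a method that sets the libraries on 1 scale from the genes with moderate differences. No length division was made, since a long read is counted once whatever its length. All 8 genes passed the filter on low counts, among 8184 genes tested. Summed over the 8 genes, CCT transcripts stood at 2218 ± 327 CPM in astrocyte sEVs and 3132 ± 417 CPM in astrocyte cells (SD, n = 3 each). Microglia sEVs had 2123 ± 388 CPM and microglia cells 2798 ± 251 CPM. Neuron sEVs had 1917 ± 72.2 CPM and neuron cells 2518 ± 175 CPM. These sums were therefore lower in sEVs of all 3 cell types on the TMM scale, but without TMM the microglia difference turned round, with 2137 RPM in sEVs and 1895 RPM in cells.

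**Figure D1:**
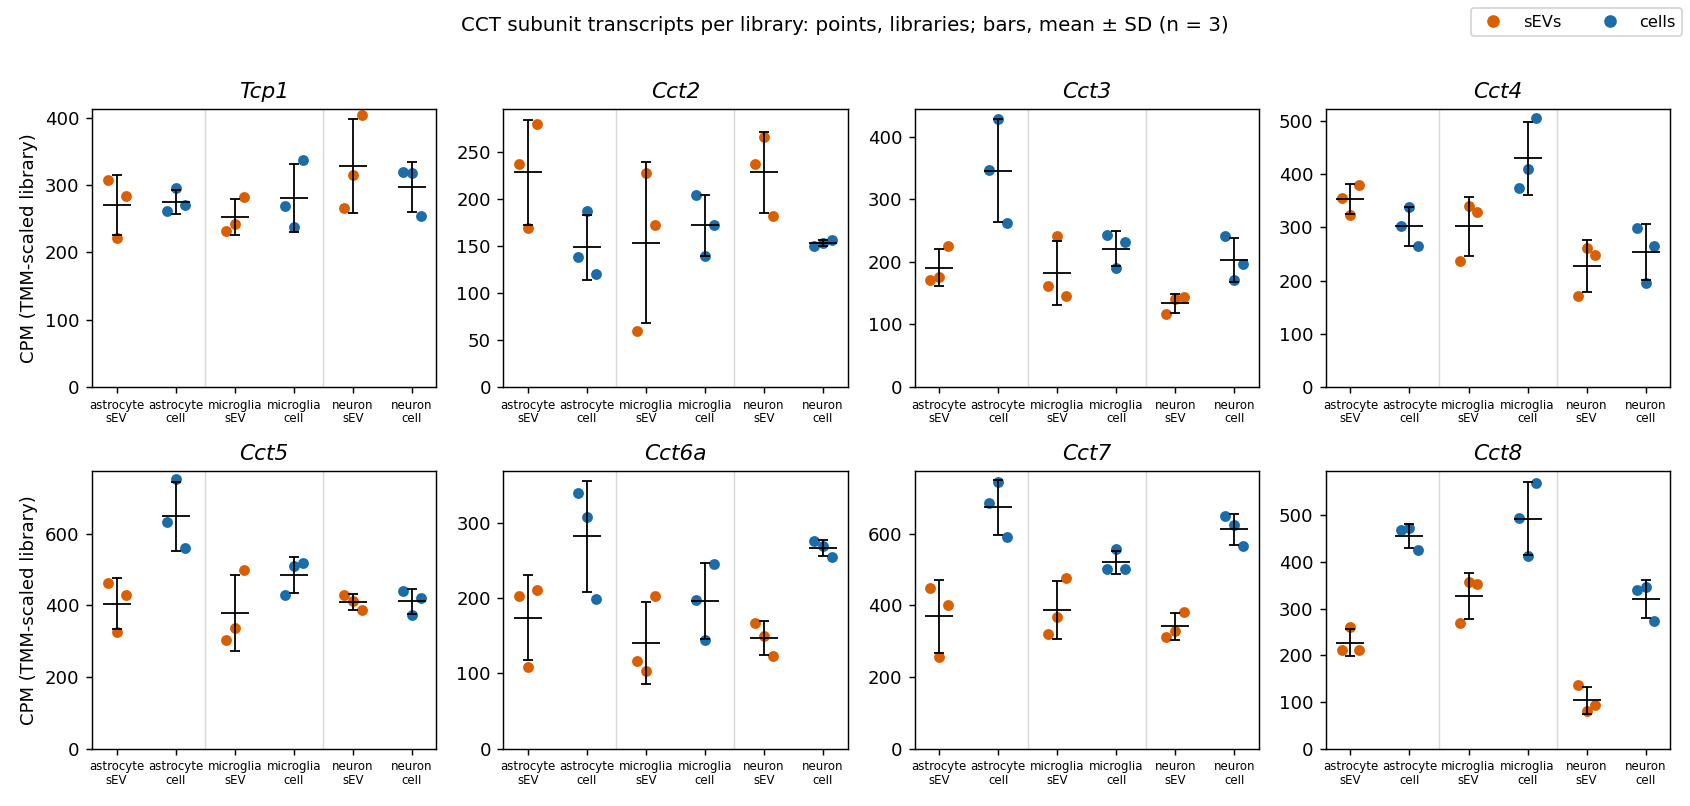
CPM of each CCT gene in the 18 libraries, with sEV libraries in orange and cell libraries in blue; points are libraries and bars the mean and SD of 3. In the panels of Cct7 and Cct8 the orange points lie below the blue points of the same cell type, and Cct8 is lowest in neuron sEVs at 80.2 to 136 CPM.

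Cct8, which encodes the theta subunit, differed most between sEVs and cells among the 8 genes. In neuron sEVs it had 136, 80.2 and 94.2 CPM, against 341, 348 and 274 CPM in neuron cells. In astrocyte sEVs it had 211, 260.0 and 211 CPM, against 469, 472 and 425 CPM in astrocyte cells. The highest sEV library stayed below the lowest cell library in both cell types, with neuron sEVs lowest of all groups. Cct8 was lower in neuron sEVs than in neuron cells by 1.63 ± 0.25 on the log2 scale (SE), a 3.09-fold difference with adjusted p = 0.000113 in edgeR's quasi-likelihood test. In astrocyte sEVs it was 2.01-fold lower than in astrocyte cells (log2 difference -1.0 ± 0.24, adjusted p = 0.00636). Microglia sEVs had 270.0, 357 and 353 CPM, against 495, 414 and 569.9 CPM in microglia cells. These 2 groups did not overlap either, but the log2 difference of -0.59 ± 0.24 did not pass the test (adjusted p = 0.127).

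Cct7, the eta subunit, stood at 312, 329 and 382 CPM in neuron sEVs, against 648, 625 and 565 CPM in neuron cells. Astrocyte sEVs had 449.6, 256 and 401 CPM, against 687, 744 and 592 CPM in astrocyte cells. In both cell types every sEV library lay below every cell library, although the astrocyte sEV libraries were themselves spread widely. Cct7 was lower in neuron sEVs than in neuron cells by 0.84 ± 0.24 on the log2 scale (adjusted p = 0.0134) and in astrocyte sEVs than in astrocyte cells by 0.87 ± 0.24 (adjusted p = 0.016). Microglia sEVs, at 319, 367 and 475 CPM, also lay below microglia cells, at 501, 558 and 501 CPM, but the difference of -0.43 ± 0.24 did not pass (adjusted p = 0.298). Cct7 and Cct8 were the members whose sEV libraries all lay below the cell libraries in each of the 3 cell types, a pattern held by 8.22% of the 8184 genes. The share of all genes without overlap in a single cell type is not given here. Non-overlap in 1 cell type, with 3 libraries a side, is therefore a description only. The Cct7 call in neurons was lost without neuron sEV replicate 1 (adjusted p = 0.056), and the call in astrocytes without astrocyte cell replicate 2 (adjusted p = 0.0629).

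Cct3, the gamma subunit, was the remaining member called within a single cell type. It had 171, 177 and 225 CPM in astrocyte sEVs, against 347, 428 and 263 CPM in astrocyte cells, without overlap. The log2 difference was -0.86 ± 0.26 (adjusted p = 0.0285). This call was lost when any 1 of astrocyte cell replicate 1, astrocyte cell replicate 2 or astrocyte sEV replicate 1 was left out, with adjusted p values of 0.0732, 0.139 and 0.0918. It was also lost without the pair of libraries richest in Gm42047 (adjusted p = 0.0959). Cct6a, the zeta subunit, had 167, 149.8 and 123 CPM in neuron sEVs, against 276, 269 and 254 CPM in neuron cells. The groups did not overlap, and the difference of -0.86 ± 0.33 stood just outside the threshold (adjusted p = 0.0534). Cct5, the epsilon subunit, stood in the same position in astrocytes, with a difference of -0.68 ± 0.24 and adjusted p = 0.051. In neurons its difference was -0.01 ± 0.24, with 409 ± 21.1 CPM in sEVs and 411 ± 35.6 CPM in cells.

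Tcp1, Cct2 and Cct4, the alpha, beta and delta subunits, passed in no comparison of sEVs with cells. Tcp1 had 271 ± 44.6 CPM in astrocyte sEVs and 275 ± 17.7 CPM in astrocyte cells, 252 ± 26.8 CPM in microglia sEVs and 281 ± 50.5 CPM in microglia cells, and 328 ± 70.1 CPM in neuron sEVs and 297 ± 37.0 CPM in neuron cells. Its mean log2 difference over the 3 cell types was -0.01 ± 0.14, with a 95% interval of -0.28 to 0.25. Cct4 had a mean difference of -0.15 with an interval of -0.43 to 0.13. In microglia it had 237, 339.7 and 329 CPM in sEVs, against 374, 411 and 506 CPM in cells, without overlap, but the difference of -0.51 ± 0.25 did not pass (adjusted p = 0.217). Cct2 had 236, 169 and 279 CPM in astrocyte sEVs, against 138, 187 and 120.1 CPM in astrocyte cells, and 237, 266 and 181 CPM in neuron sEVs, against 149.8, 153 and 156 CPM in neuron cells. In neurons its sEV libraries all lay above its cell libraries, but the difference of 0.58 ± 0.37 did not pass (adjusted p = 0.251). Microglia sEVs spanned 59.8 to 227 CPM of Cct2, around the microglia cell values of 139 to 204 CPM.

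Counted by cell type, 3 of the 8 genes fell in astrocyte sEVs relative to astrocyte cells, where 12.2% of all genes tested fell. In neuron sEVs relative to neuron cells, 2 of 8 fell, beside 17.8% of all genes. In microglia sEVs relative to microglia cells, 0 of 8 passed in edgeR, beside 9.18% of genes that fell, although 1 had an unadjusted p under 0.05 and DESeq2 called 1, Cct8. All 8 microglia differences were below 0 on the TMM scale, from -0.59 to -0.16, and 7 of them were above 0 without TMM, as was the median of all genes, at 0.14. No member rose in any of these comparisons. Markers of other cells moved in the same comparisons: of 8 oligodendrocyte lineage markers tested, 5 fell in astrocyte sEVs (median log2 difference -2.33) and 3 in neuron sEVs (median -3.14), with 0 called in microglia sEVs. Of 9 astrocyte markers tested, 4 fell and 2 rose in neuron sEVs (median -2.44), and 2 fell in microglia sEVs. Markers of the source cells moved as well. Of the 9 astrocyte markers, 4 fell and 1 rose in astrocyte sEVs (median -0.90). Of 11 microglia markers, 6 fell and 1 rose in microglia sEVs (median -1.53). Of 10 neuron markers, 4 fell and 0 rose in neuron sEVs (median -1.25). The part of other cells in the CCT differences was not tested. Without astrocyte cell replicate 2 only Cct8 was called in astrocytes. Without astrocyte sEV replicate 2 the calls in neurons were 4, with Cct3 and Cct6a added, and without neuron sEV replicate 1 only Cct8 was left there. Without the filter on low counts the calls were 0 in astrocytes and 1 in neurons. The median log2 difference of the 8 genes was -0.68 in astrocytes, -0.39 in microglia and -0.38 in neurons, beside medians over all genes of 0, 0 and -0.10.

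In the mean of the 3 differences, which draws on all 18 libraries, 4 of 8 genes fell, beside 19.5% of all genes. They were Cct8 (log2 difference -1.07 ± 0.14, adjusted p = 1.09e-05), Cct7 (-0.71 ± 0.14, adjusted p = 0.000605), Cct3 (-0.58 ± 0.15, adjusted p = 0.00682) and Cct6a (-0.68 ± 0.19, adjusted p = 0.0093). Grouped by the ATP-binding property known from yeast, these were 3 of the 4 genes of the weaker-binding side, all but Tcp1, and 1 of the 4 of the tighter-binding side. The grouping was not among the planned comparisons and was not tested. It also depends on the threshold, since Cct5, of the tighter-binding side, passed without astrocyte sEV replicate 2 (adjusted p = 0.0162). Cct5 had a mean difference of -0.35 ± 0.14 (adjusted p = 0.0589), and Cct2 one of 0.35 ± 0.21 (adjusted p = 0.248). The median over the 8 genes was -0.46, and that over all genes -0.15.

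**Figure D2:**
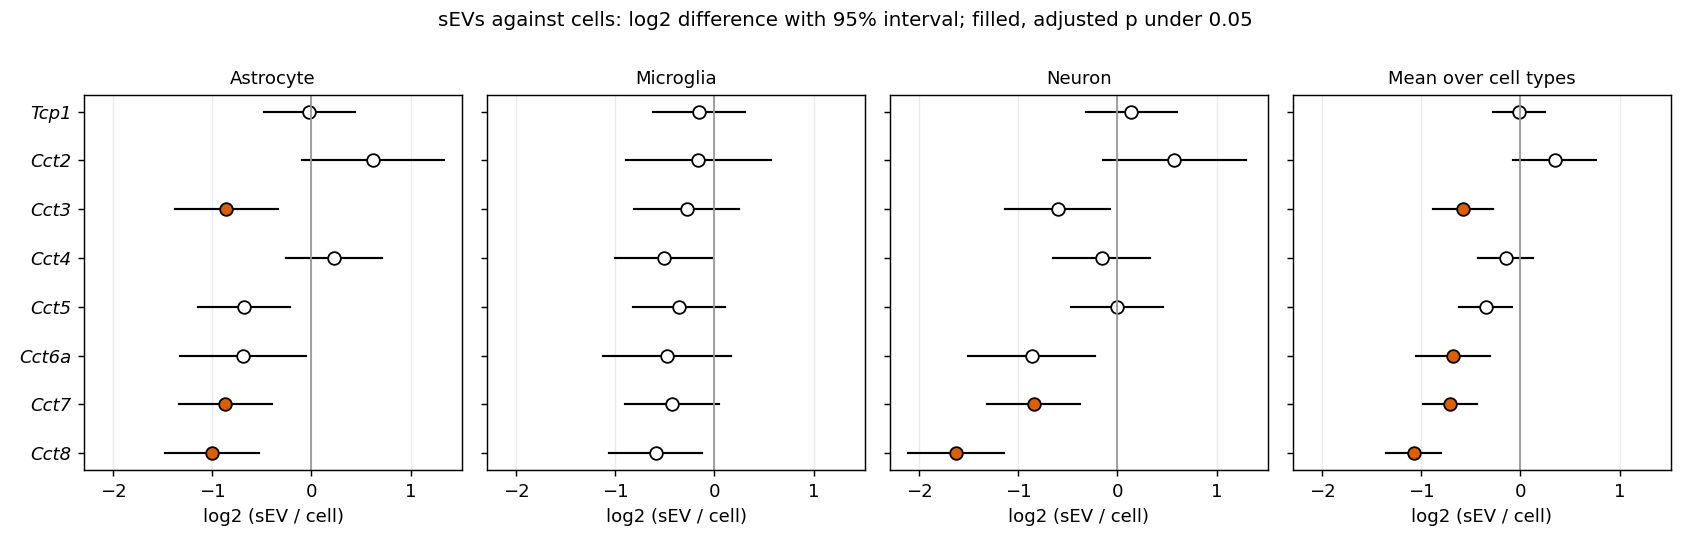
Log2 ratio of sEVs to cells for each CCT gene, in each cell type and as the mean over cell types, with 95% intervals; filled points passed at an adjusted p of 0.05. Filled points lie left of 0 in astrocytes (3 genes), neurons (2) and the mean (4), and none is filled in microglia.

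Whether the sEV difference itself varied with cell type was tested on 2 degrees of freedom. With edgeR, 0 of 8 genes passed, beside 3.96% of all genes, 1 had an unadjusted p under 0.05, and Cct8 came nearest (adjusted p = 0.189). DESeq2 called 1 gene in that test, Cct8. The levels of Cct8 did differ between sEVs of different cells. It was lower in neuron sEVs than in astrocyte sEVs by 1.13 ± 0.25 on the log2 scale (adjusted p = 0.00523), the only 1 of 8 genes called, where 5.28% of all genes fell. Without the filter on low counts this call of Cct8 was lost (adjusted p = 0.0572), and without TMM 3 genes were called lower, with Cct3 and Cct4 added. Between microglia sEVs, at 270.0 to 357 CPM, and neuron sEVs, at 80.2 to 136 CPM, Cct8 was 3.15-fold higher in microglia sEVs (adjusted p = 3.66e-05). It was again the only 1 of 8 called in edgeR, beside 19.9% of genes higher, and DESeq2 called 2, with Tcp1 added as lower in microglia sEVs (log2 difference -0.43, adjusted p = 0.0316). Microglia sEVs against astrocyte sEVs gave 0 of 8, beside 41.7% of all genes in either direction, with 1 gene under an unadjusted p of 0.05 and 1 called by DESeq2, Cct8.

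Among the cells, Cct4 was higher in microglia, at 374, 411 and 506 CPM, than in neurons, at 299.7, 196 and 264 CPM (log2 difference 0.76 ± 0.25, adjusted p = 0.0202). Cct8 was also higher in microglia cells than in neuron cells (0.62 ± 0.24, adjusted p = 0.0451). These were 2 of 8 genes, beside 16.6% of all genes higher, and the median of all genes in this comparison was -0.67. Neither call holds without TMM, where the differences of Cct4 and Cct8 became -0.03 and -0.17 while Tcp1, Cct6a and Cct7 were called lower in microglia cells. Leaving out 1 library at a time gave 0 to 2 calls: Cct4 was lost without microglia cell replicate 2 or 3 or neuron cell replicate 2 or 3 (adjusted p 0.0556, 0.106, 0.115 and 0.0593), and Cct8 without any 1 of the 6 libraries compared (adjusted p 0.0586 to 0.187). The Cct8 call was also lost without any 1 of 9 libraries of other groups, which share the model (adjusted p 0.0515 to 0.0681). Neuron cells against astrocyte cells gave 0 of 8 in edgeR, beside 10.4% of all genes, with 3 under an unadjusted p of 0.05 and 2 called by DESeq2, Cct3 and Cct5. Microglia cells against astrocyte cells also gave 0 of 8, beside 35.4%, with 1 under an unadjusted p of 0.05 and 1 called by DESeq2, Cct4.

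Each subunit's share of its library's CCT reads does not depend on scaling between libraries, but since the shares add up to the whole, a lower share of 1 subunit raises the others. Cct8 made up 5.44 ± 1.75% of the CCT reads in neuron sEVs and 12.7 ± 1.35% in neuron cells (SD, n = 3 each). Cct7 made up 17.8 ± 1.47% in neuron sEVs and 24.3 ± 0.98% in neuron cells. Cct2 took 11.9 ± 2.36% in neuron sEVs and 6.1 ± 0.53% in neuron cells, and 10.2 ± 1.22% in astrocyte sEVs and 4.7 ± 0.53% in astrocyte cells. Tcp1 took 17.03 ± 3.15% in neuron sEVs and 11.8 ± 1.16% in neuron cells. In microglia the shares moved less: Cct8 had 15.5 ± 0.96% in sEVs and 17.5 ± 1.44% in cells, and Cct2 6.93 ± 3.37% in sEVs and 6.15 ± 1.21% in cells.

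Most CCT reads came from few isoforms. Of the 145 isoforms, 88 (60.7%) were seen in 1 library only, near the 64.5% of all isoforms, and held 1.54% of the CCT reads. The 13 isoforms that passed the filter held 95.6% of the reads. Full-splice matches, reads that follow every junction of an annotated transcript, were 98.4% of Cct7 reads, 95.8% of Cct3 reads and 90.4% of Cct5 reads. They were 34.1% of Cct2 reads, the lowest share of the 8 genes. In the isoform test of the mean difference, 7 of the 13 passed, beside 28% of all 9370 isoforms tested. Without the filter on low counts 3 of these 7 were called, 2 isoforms of Cct2 and the full-splice match of Cct8.

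In Cct2, isoforms changed in opposite directions. Its full-splice match had 0, 4 and 33 reads in astrocyte sEVs, out of 183, 87 and 195 Cct2 reads, against 69, 94 and 63 reads in astrocyte cells, out of 96, 135 and 85. In neuron sEVs it had 15, 10 and 4 of 143, 126 and 102 reads, against 54, 55 and 47 of 95, 100 and 95 in neuron cells. These sEV libraries were low in the annotated form, although all of them but astrocyte sEV replicate 2 held more Cct2 reads than any cell library of the type. As a share of Cct2 reads, the full-splice match was 7.17 ± 8.75% in astrocyte sEVs and 71.9 ± 2.24% in astrocyte cells, 39.0 ± 24.1% in microglia sEVs and 60.4 ± 12.1% in microglia cells, and 7.45 ± 3.31% in neuron sEVs and 53.8 ± 3.83% in neuron cells. A second isoform, which joins known junctions in a combination that the annotation lacks, took 61.3 ± 30.9% in astrocyte sEVs and 16.7 ± 7.92% in astrocyte cells. It took 56.6 ± 22.7% in microglia sEVs and 13.2 ± 5.28% in microglia cells, and 60.3 ± 36.7% in neuron sEVs and 26.2 ± 11.7% in neuron cells. Tested as levels, the full-splice match fell in sEVs by 2.14 ± 0.51 on the log2 scale (adjusted p = 0.00495) and the second isoform rose by 1.96 ± 0.40 (adjusted p = 0.00166) in the mean over cell types. The gene's summed level did not pass. Counted from full-splice matches alone, the Cct2 difference in astrocytes turned to -2.52 (adjusted p = 0.042). The 2 isoforms did not do the same in every library: in astrocyte sEV replicate 3 and neuron sEV replicate 2 a 3′ fragment took 39.5% and 60.3% of Cct2 reads, and microglia sEV replicate 1, with 33 Cct2 reads, had 63.6% full-splice matches. Which exons separate the isoforms is not analysed here, since the table gives no isoform coordinates.

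**Figure D3:**
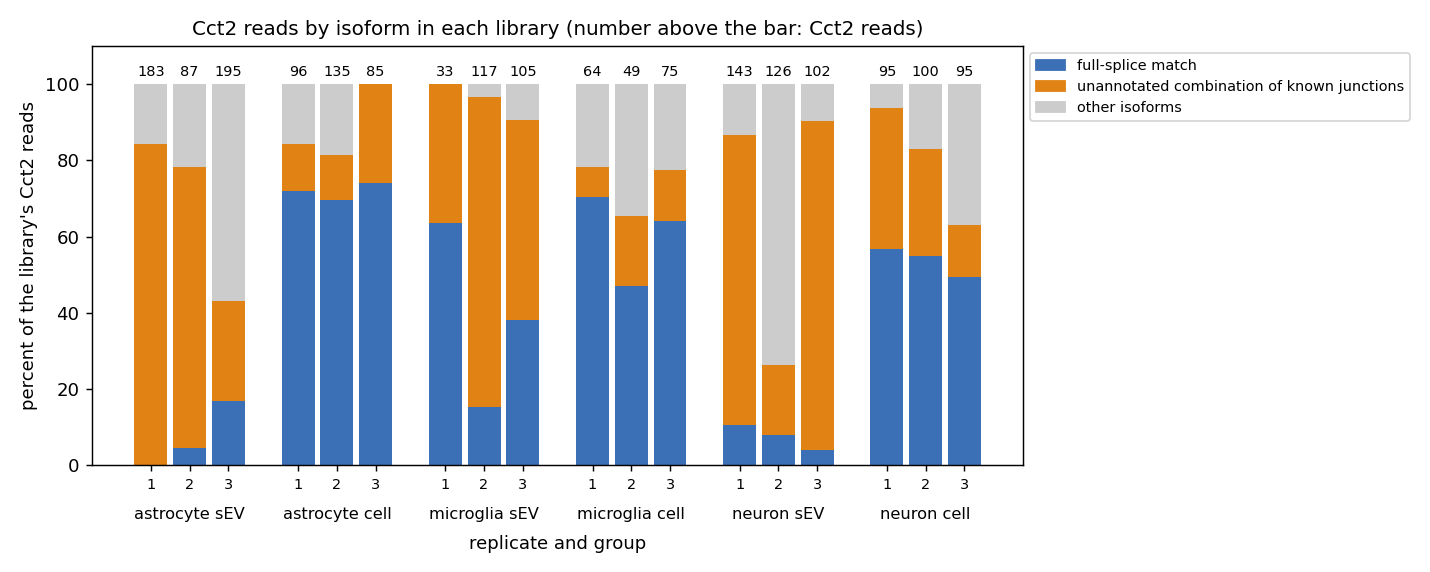
Share of each library's Cct2 reads held by the full-splice match (blue), the unannotated combination of known junctions (orange) and other isoforms (grey), with the number of Cct2 reads above each bar. Blue makes up at most 16.9% in the 6 astrocyte and neuron sEV libraries and at least 46.9% in the 9 cell libraries.

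A test of isoform proportions within the gene did not call this shift. In the mean of sEVs against cells, 0 of the 3 members with several tested isoforms passed, beside 7.13% of 1752 genes, with Cct2 at adjusted p = 0.0858, Cct5 at 0.1 and Tcp1 at 1. Cct2 and Cct5 had unadjusted p values of 0.00786 and 0.00949, and Cct2 passed when astrocyte sEV replicate 3 was left out.

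The other 5 isoforms that passed at the level of the mean difference were the full-splice matches of Cct3, Cct5, Cct6a, Cct7 and Cct8, all lower in sEVs. That of Cct8 was lower by 1.38 ± 0.17 on the log2 scale (adjusted p = 2.85e-05) and that of Cct5 by 0.64 ± 0.14 (adjusted p = 0.00347). The isoform test had TMM factors of its own, so these sizes cannot be compared directly with those of the genes. In neuron cells the Cct7 full-splice match had 672 CPM on the isoform scale, above the 612 CPM of the whole gene on the gene scale. In neuron sEVs the Cct8 full-splice match made up 71.4 ± 21.02% of Cct8 reads, against 91.1 ± 2.45% in neuron cells, and its lowest share, 47.2%, was 25 of 53 reads in neuron sEV replicate 3. Over the 8 genes together, full-splice matches were 84.5 ± 1.67% of reads in astrocyte sEVs and 95.2 ± 1.04% in astrocyte cells, 91.3 ± 3.84% in microglia sEVs and 96.0 ± 0.76% in microglia cells, and 78.5 ± 2.58% in neuron sEVs and 91.5 ± 1.49% in neuron cells. The reads of all genes showed lower shares in sEVs as well, at 81.7 ± 3.29%, 86.3 ± 2.80% and 77.5 ± 3.27% in astrocyte, microglia and neuron sEVs, against 89.2 ± 0.59%, 91.5 ± 0.39% and 85.8 ± 1.42% in the cells of the same types. Reads that match only the 3′ part of an annotated transcript were 8.71 ± 4.52% of CCT reads in neuron sEVs and 1.56 ± 1.51% in neuron cells, beside 9.94 ± 0.39% and 3.83 ± 1.38% of all reads. The part of RNA fragmentation in the level differences was not tested.

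A second isoform of Cct5, again an unannotated combination of known junctions, made up 24.2 ± 8.12% of Cct5 reads in neuron sEVs and 12.5 ± 8.91% in neuron cells. In astrocytes it made up 6.78 ± 4.47% in sEVs and 1.95 ± 1.13% in cells. In microglia it had 5 of 644 reads in sEVs and 0 of 541 reads in cells, which allows a share of up to 0.555% in the cells. Isoform proportions of Cct5 differed between microglia cells and neuron cells (adjusted p = 0.00141, beside 5.54% of genes) and between microglia sEVs and neuron sEVs (adjusted p = 0.00552, beside 6.39% of genes). In the second of these Tcp1 also passed (adjusted p = 0.0469). These comparisons of proportions between cell types were added after the values had been seen. The second Tcp1 isoform, a full-splice match with other ends, had 128 of 238 Tcp1 reads in astrocyte sEV replicate 1, 37 of 125 in microglia sEV replicate 2 and 35 of 172 in microglia sEV replicate 3. Its share was 22.6 ± 27.2% in astrocyte sEVs, 16.6 ± 15.1% in microglia sEVs, 0.587 ± 1.02% in neuron sEVs, and 3.13% to 5.69% on average in the cells.

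Reads of isoforms that retain an intron were found for CCT genes in cells but not in sEVs. In astrocyte cells 161 of 6669 CCT reads were of this kind, in neuron cells 100 of 4777 and in microglia cells 8 of 3114. That is 2.41% (95% exact binomial interval 2.06% to 2.81%), 2.09% (1.71% to 2.54%) and 0.257% (0.111% to 0.506%). These intervals pool the 3 libraries of a group and cover counting error only. Between libraries the shares were 2.35 ± 0.70%, 2.17 ± 1.63% and 0.279 ± 0.170% (SD, n = 3 each). The neuron cell libraries held 1.28%, 1.19% and 4.06%, all outside their pooled interval. In the 9 sEV libraries together there were 0 such reads among 11200, which allows a share of up to 0.0268%, counting error only. Over all genes, intron-retaining isoforms made up 1.78 ± 0.34%, 1.29 ± 0.08% and 2.55 ± 0.10% of reads in astrocyte, microglia and neuron sEVs, against 2.21 ± 0.23%, 1.98 ± 0.17% and 2.66 ± 0.34% in the cells, so sEV libraries did hold such reads of other genes. Of the 1635 tested genes with at least 10 intron-retaining reads in cells, 43.9% had 0 in the sEV libraries, and 7 of the 7 CCT genes with that many did. This comparison was made after the values had been seen and was not tested. The smallest count above 0 in the table is 2, so single reads of an isoform may be missing.

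**Figure D4:**
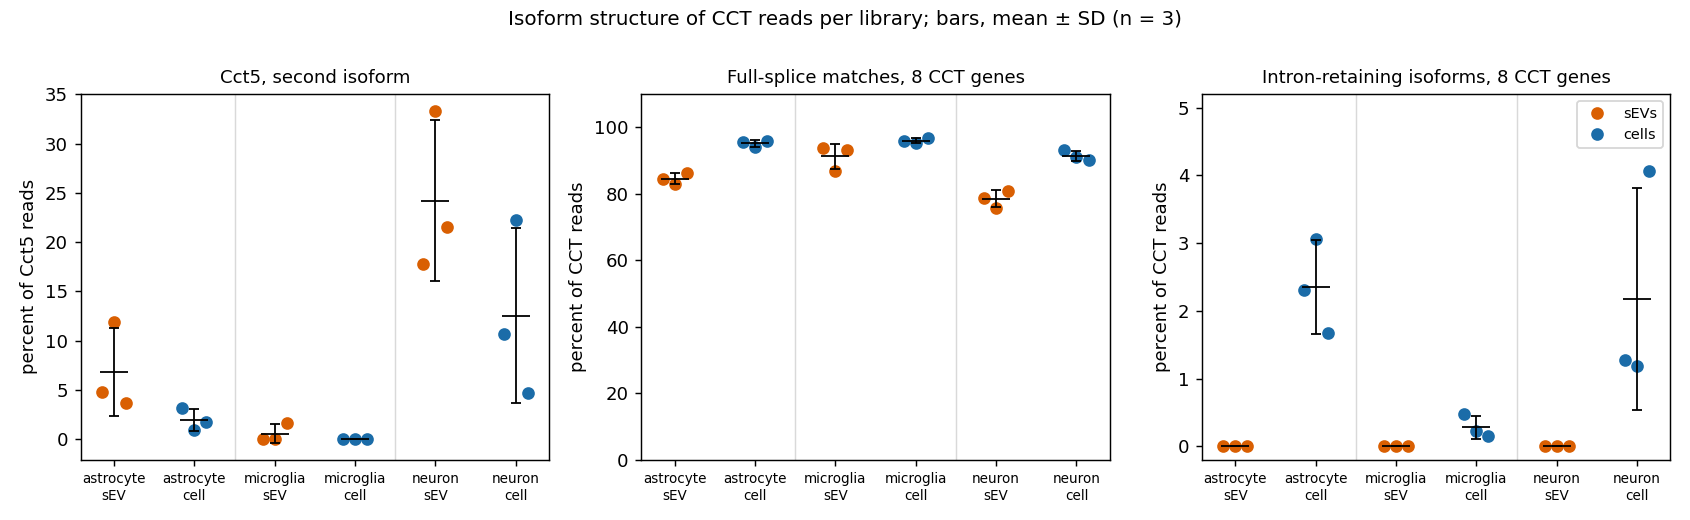
Percent of Cct5 reads from the second isoform (left), percent of CCT reads that are full-splice matches (middle) and percent from intron-retaining isoforms (right), for each library with mean and SD of 3. The left panel is highest in neuron sEVs and at or near 0 in microglia, and the right panel is at 0 in the 9 sEV libraries.

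The subunits differed in how closely their levels followed each other across the 18 libraries. The correlation of each gene's log2 CPM with the mean of the other 7 was 0.779 for Cct7, 0.741 for Cct5, 0.738 for Cct3, 0.685 for Cct6a, 0.5 for Cct8 and 0.44 for Cct4, but 0.07 for Tcp1 and -0.09 for Cct2 (Pearson r, n = 18 libraries that share groups and pools, given as a description). The genes most like the CCT mean, among 7943 ranked, were Rtcb (r = 0.901), a tRNA ligase, Scarb2, Fubp3, Septin7 (r = 0.87), a cytoskeletal GTPase, Ginm1, Puf60 and Rbm39, which act in splicing, Psmd2 (r = 0.85), a proteasome subunit, Strap and Eftud2 (r = 0.845). Each was lower in sEVs than in cells on average, as Rtcb with 108 CPM in neuron sEVs and 253 CPM in neuron cells. These genes were picked for following the CCT mean, itself lower in sEVs, so the shared direction follows in part from the choice.

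Of the 9 prefoldin and prefoldin-like genes, 8 were tested, and in the mean of sEVs against cells 3 rose and 0 fell, beside 14.5% of all genes that rose. Pfdn5, a prefoldin subunit, had 748 ± 135 CPM in neuron sEVs and 129 ± 6.62 CPM in neuron cells, and a mean log2 difference of 1.53 ± 0.14 (adjusted p = 1.17e-07). Pfdn1, another subunit, rose by 1.58 ± 0.15 (adjusted p = 2.4e-07), and Pdrg1, a prefoldin-like protein, by 1.23 ± 0.14 (adjusted p = 2.99e-06). The median of the 8 was 0.87, beside -0.46 for the CCT genes and -0.15 for all genes. Of 3 phosducin-like genes tested 1 rose, Txndc9 (0.46 ± 0.15, adjusted p = 0.02), beside values of 0.40 ± 0.22 for Pdcl3 and 0.22 ± 0.43 for Pdcl, which did not pass. Of 5 tubulin folding cofactors 1 rose, Tbca (1.06 ± 0.28, adjusted p = 0.00698), which binds beta-tubulin, beside 0.33 ± 0.18 for Tbcb and 0.17 ± 0.20 for Arl2. Of the 5 genes related to CCT but outside the complex, Mkks was the 1 tested (0.19 ± 0.99), and it did not pass. Without TMM the same genes of these lists were called higher, and Pfdn2 in addition.

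Among the clients, 4 of 14 actin and tubulin genes fell and 0 rose, beside 19.5% of genes that fell. Tuba1a, an alpha-tubulin, had 6818 ± 1076 CPM in neuron sEVs and 9926 ± 795 CPM in neuron cells (mean log2 difference -1.17 ± 0.22, adjusted p = 0.000427). Tubb2a fell by 1.24 ± 0.16 (adjusted p = 1.12e-05) and Tubb4b by 0.99 ± 0.30 (adjusted p = 0.0152). Actb also passed, with 41.1 ± 57.1 CPM in microglia sEVs and 8029 ± 763 CPM in microglia cells. It was at 0 in the neuron sEV libraries, so no fold is given. Its paralog Actg1 had 766 ± 155 CPM in microglia sEVs and 639 ± 122 CPM in microglia cells. Tubulin and actin paralogs are alike enough that reads could be split between them, which was not tested. Of 9 WD-repeat and other clients tested, Gnb1 (7.98-fold, adjusted p = 4.64e-08) and Rack1 (2.08 ± 0.16) rose, and Gnb4 (-1.42 ± 0.47) and Hdac3 (-0.90 ± 0.29) fell. Of 8 genes of the cytosolic HSP70 and HSP90 system, 3 fell and 0 rose: Hspa8 (-1.32 ± 0.14, adjusted p = 9.28e-07), the constitutive HSP70, its partner Dnaja1 (-0.82 ± 0.19, adjusted p = 0.00272) and Stip1 (-1.35 ± 0.25, adjusted p = 0.000346), which links HSP70 to HSP90. Without TMM the same genes of these client and chaperone lists were called in each direction, and Actg1 was called higher in addition.

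**Figure D5:**
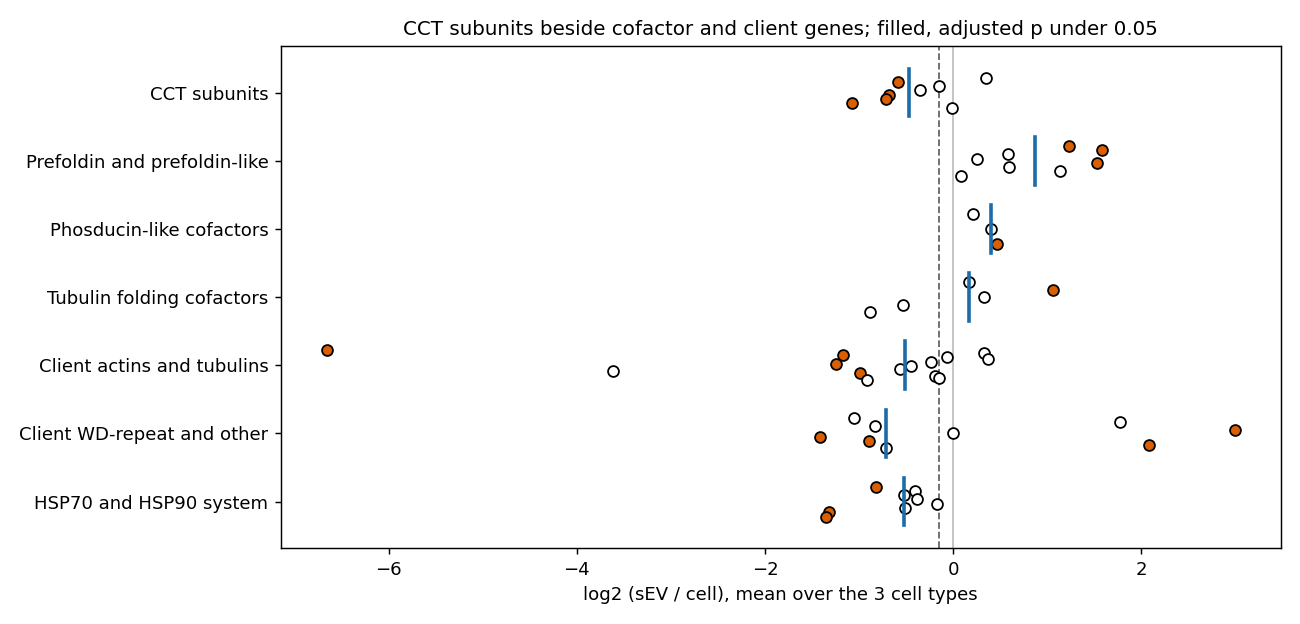
Mean log2 ratio of sEVs to cells over the 3 cell types for the tested genes of each list; filled points passed at an adjusted p of 0.05, blue ticks are list medians and the dashed line is the median of all genes at -0.15. Filled CCT points lie left of 0 and filled prefoldin points right of 0.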

How the data were processed

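Full-length cDNA of polyadenylated RNA was read on the PacBio Sequel II, after 10 cycles of reamplification per the labels' protocols. The authors deposited 1 table of raw read counts per isoform for the 18 libraries, with a gene label and a structural category for each isoform. Reads were mapped to GRCm39 with minimap2, per the submitters' processing notes. The isoform caller, annotation and versions were not given in the sources used here. Columns were matched to libraries through the deposited key of column numbers, and groups were taken from the sample titles.

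Counts were summed by gene label. Genes and isoforms were filtered with filterByExpr, scaled by TMM and tested with edgeR's quasi-likelihood F test (edgeR 4.0.16, limma 3.58.1, R 4.3.3) in 1 model of 6 group means over all 18 libraries. P-values were adjusted by the Benjamini-Hochberg method over all genes or isoforms tested, with a threshold of 0.05, and all tests were two-sided. The ± after a log2 difference is its SE, and 95% intervals use the normal quantile. Isoform proportions were tested with diffSpliceDGE and Simes' method. The members and the gene lists were chosen with earlier results of these data known. All 8 members are named, list genes past the threshold in the mean of the 3 differences are named, and where fewer than 3 passed, those with the highest mean counts are named too. The genes most alike are the 10 with the highest Pearson r to the mean log2 CPM (prior count 2) of the 8 genes. No read carries a molecular identifier, so intervals and the limits allowed by a count of 0 (3 reads) cover counting error only.

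No libraries were duplicates: within groups, counts differed by a chi-square per degree of freedom of 5.28 to 24.7. Alternatives were DESeq2 1.42.0, library sizes without TMM, no filter, a replicate block, full-splice matches only, only the groups compared, and each library left out in turn. Added after seeing the data were the fit without the pair of sEV libraries richest in Gm42047, the addition of a read-through label to Cct4, and the gene lists without TMM. The tests were run on simulated counts with known changes before use. The changes planted in gene levels were larger than the differences of the CCT genes in the main fit. The runs therefore do not show how often differences of these sizes are found. Promoter sequences are RefSeq's, for GRCm38.p6.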

Additional observations from a re-analysis of the deposited data

Results flagged for a closer look

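A read-through label that joins Zrsr1 and Cct4, and that the table classes as a fusion, had 46 reads in astrocyte sEV replicate 3 and 0 in the other 17 libraries. It lies outside the 8 gene labels compared above. With its reads added to Cct4, the difference of Cct4 between astrocyte sEVs and astrocyte cells was 0.31 (adjusted p = 0.433), and 3 genes were still called in that comparison.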

How the results depend on the processing

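DESeq2 called 5 genes in astrocyte sEVs against cells, 1 in microglia, 1 in the test of cell type by fraction, 2 in neuron against astrocyte cells, 1 in microglia against astrocyte cells, 1 in microglia against astrocyte sEVs and 2 in microglia against neuron sEVs. Without TMM the calls were 4 in neuron sEVs against cells, 1 for cell type by fraction, 6 in microglia against astrocyte cells and 3 in neuron against astrocyte sEVs, and the summed level differed by 0.17 in microglia and by -0.76 in neurons (log2). Without the filter, 17714 genes entered, and the calls were 0 in astrocytes, 1 in neurons, 0 in microglia against neuron cells, 0 in neuron against astrocyte sEVs and 3 isoforms. From full-splice matches alone, 5 genes were called in astrocytes and 1 in microglia against neuron cells, the summed neuron difference was -0.64, and Cct2 in astrocytes reversed to -2.52. With only the groups compared, 4 were called in neurons, 3 in neuron against astrocyte cells and 2 in microglia against astrocyte cells. The cause was not tested. The shares over all genes given in this report are those of the main fit. Counts from other settings, here, above and below, therefore show how calls depend on the setting, and not an excess over other genes.

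Leaving out 1 library at a time gave 1 to 4 calls in astrocytes, 1 to 4 in neurons, 4 to 5 in the mean, 0 to 1 in microglia against astrocyte cells, 0 to 2 in microglia against neuron cells, 0 to 1 in microglia against astrocyte sEVs and 0 to 1 for isoform proportions. The summed neuron difference ran from -0.62 to -0.35. Cct2 passed in the mean without microglia sEV replicate 1 (0.46, adjusted p = 0.0362). The 4 genes called in the mean were called in each of these fits.

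No pairing by replicate number was seen: same-numbered sEV and cell libraries had deviations correlated at -0.08 to 0.08, with 0 of 9 pairs over 0.1. Pairs with different numbers ran from -0.08 to 0.07. With 3 libraries per group, this cannot show that the libraries are unpaired. With a replicate block, 1 gene was called in microglia against neuron cells, and no other count moved by more than 1.5 times. Cct2 had 33 to 195 reads a library, and its sEV difference within a cell type had an SE of 0.37 in each.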
